A study of Mus musculus with 2 samples.

Results

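The ubiquitin conjugating enzymes (genes named Ube2) and the ubiquitin-specific proteases (genes named Usp) were examined in CD4+CD8+ double-positive (DP) thymocytes with and without *Cxxc1*. Genes were taken by name from the deposited expression table as every symbol that begins with Ube2 or with Usp and a digit, leaving out the sex-chromosome pair *Usp9x* and *Usp9y*. The rule gave 91 of the 21041 genes of the table, 37 Ube2 and 54 Usp genes, and it used no measured value. A pair of them carry the name without the activity, since *Ube2cbp* is a ubiquitin ligase that binds an E2 and *Usp6nl* is a GTPase-activating protein. In the values as deposited, 70 of the 89 genes above 0 in a library were lower in *Cxxc1*-deficient cells, 26 of them by at least 2-fold. Of all genes above 0 in a library, 60.0% were lower and 17.4% were at least 2-fold lower. Among genes averaging at least 100, 14 of 23 Ube2 and Usp genes were at least 2-fold lower, close to the 56.8% of all genes. The median log2 ratio of the 89 changed sign when both libraries were scaled to the same median of the genes averaging at least 100.

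Ubiquitin is activated by an E1 enzyme, passed to the active-site cysteine of an E2 enzyme and transferred to a target protein together with an E3 ligase, which selects the target. The E2 often sets which kind of ubiquitin chain is built, and so whether the target is sent to the proteasome or used in signalling. USPs are cysteine proteases that take ubiquitin off again. In thymocytes this cycle acts on T-cell receptor signalling, on NF-kB signalling, on the cell cycle and on histones.

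*Cxxc1* (CFP1) is a CXXC-finger protein that binds unmethylated CpG DNA and is a subunit of the Setd1 methyltransferase complexes, which place H3K4me3 at promoters. The study asked how its loss changes gene expression in DP cells, and 1 mRNA-seq library was made from each genotype, so every value below comes from 1 library and no difference has a replicate check. WT cells came from *Cxxc1* fl/fl mice without Cre, and *Cxxc1*-deficient cells from *Cxxc1* fl/fl hCD2-Cre mice, in which a human CD2 promoter drives Cre in the lymphoid lineage, so that deletion is not limited to DP cells. The deposited genotype label of the deficient sample instead reads *Cxxc1*+/-. Both groups share the floxed allele, made in ES cells of strain 129 and moved onto C57BL/6 by backcrossing, and were young mice a few weeks old. Neither the number of mice behind each library nor their sex is given in the sources used here. Total RNA was taken from bulk cells, in which fewer cells of a type and less RNA per cell cannot be told apart.

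Values are a normalized expression score for each gene, which the authors rounded to integers, and neither its unit nor the read depth is stated in the sources used here. Where a pair of values is given for a gene, the first is WT and the second *Cxxc1*-deficient. The values summed to 1551994 in WT cells and 981677 in *Cxxc1*-deficient cells, while the median gene was at 36 in both. *Cxxc1* itself was at 91 in WT cells and 50 in *Cxxc1*-deficient cells (1.82-fold lower). The 50 lies under 57, the 95th percentile in those cells of genes taken to be silent, described further on. By quantitative PCR, the study found *Cxxc1* mRNA almost undetectable in deficient DP cells. It also reported loss of the protein there by western blot. The 10 DP thymocyte markers lay between 1085 and 20778 in WT cells and between 172 and 5058 in *Cxxc1*-deficient cells, and all 10 were lower there. Of the 5 markers of double-negative thymocytes, 4 were higher in *Cxxc1*-deficient cells, and the list summed to 244 in WT cells and 387 in *Cxxc1*-deficient cells. That rise came mostly from *Il2ra*, at 63 and 207. *Cd44* was at 35 and 58, *Il7r* at 32 and 42 and *Kit* at 35 and 36, while *Ptcra* was lower, at 79 and 44. The 5 B cell markers summed to 162 and 120, the 5 macrophage and dendritic cell markers to 186 and 200, the 5 erythroid markers to 104 and 129 (*Hba-a1* at 0 in both) and the 5 thymic epithelial markers to 126 and 113 (*Krt8* at 0 in *Cxxc1*-deficient cells). Their part in the values of the Ube2 and Usp genes was not tested.

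Because *Cxxc1* binds CpG-rich DNA, the start regions of the Ube2 and Usp genes are of interest beside their expression. In DP cells the study saw enrichment at CpG-dense regions (CpG islands), though few of the binding sites it called overlapped them. The CG counts below are therefore no measure of *Cxxc1* binding. For 90 of the 91 genes a window from 250 bases before to 50 bases after the annotated start of the longest coding transcript was read from mm9 (NCBIM37), and the CG dinucleotides on 1 strand were counted. The windows held a median of 25 CG, against 14 over the windows of 18584 genes of the table. At least 20 CG were found in 63.3% of the Ube2 and Usp windows and in 36.9% of all windows. Windows are given for 2 genes with a high level and a CG-dense start, *Ube2j1* (chr4:33118141-33118440, plus strand, 52 CG) and *Usp25* (chr16:77014064-77014363, plus strand, 54 CG), for *Ube2s* (chr7:4763893-4764192, minus strand, 30 CG), which was listed at 0 in both libraries, and for *Usp26* (chrX:49154361-49154660, minus strand, 5 CG), a USP known from testis. Each reads 5′ to 3′ on the strand of its gene, with every CG in capitals.
Ube2j1: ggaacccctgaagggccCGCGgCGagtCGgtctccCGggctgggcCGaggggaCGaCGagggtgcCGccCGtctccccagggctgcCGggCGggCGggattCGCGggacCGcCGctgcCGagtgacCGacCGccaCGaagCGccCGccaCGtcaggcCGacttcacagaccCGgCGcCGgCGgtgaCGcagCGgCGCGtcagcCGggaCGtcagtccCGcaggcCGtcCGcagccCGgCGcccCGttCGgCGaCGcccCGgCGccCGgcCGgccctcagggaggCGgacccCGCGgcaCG
Usp25: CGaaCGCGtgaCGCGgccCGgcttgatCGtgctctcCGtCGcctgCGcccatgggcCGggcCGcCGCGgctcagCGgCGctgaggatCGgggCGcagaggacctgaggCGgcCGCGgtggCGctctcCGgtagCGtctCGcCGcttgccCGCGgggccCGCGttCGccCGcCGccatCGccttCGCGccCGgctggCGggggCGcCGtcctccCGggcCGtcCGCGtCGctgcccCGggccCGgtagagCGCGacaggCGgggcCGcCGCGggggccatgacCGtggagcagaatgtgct
Ube2s: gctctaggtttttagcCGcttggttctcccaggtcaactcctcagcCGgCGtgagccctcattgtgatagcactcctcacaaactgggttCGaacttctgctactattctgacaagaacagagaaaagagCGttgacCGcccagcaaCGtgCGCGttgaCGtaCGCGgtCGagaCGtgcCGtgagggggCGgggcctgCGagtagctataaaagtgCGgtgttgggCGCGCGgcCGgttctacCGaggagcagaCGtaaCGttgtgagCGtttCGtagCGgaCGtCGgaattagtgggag
Usp26: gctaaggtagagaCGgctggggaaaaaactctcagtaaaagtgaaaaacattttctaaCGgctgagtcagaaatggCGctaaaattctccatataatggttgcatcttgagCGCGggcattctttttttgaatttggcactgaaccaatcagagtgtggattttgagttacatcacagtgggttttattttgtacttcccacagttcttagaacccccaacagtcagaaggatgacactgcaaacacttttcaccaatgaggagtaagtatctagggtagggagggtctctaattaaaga
The first pair carry CG throughout, *Ube2s* mostly towards its start, and *Usp26* only in scattered positions. Other annotated starts of a gene can give another count.

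Over the 89 genes above 0 in a library, the median level was 57 in WT cells and 48 in *Cxxc1*-deficient cells, while the median of the log2 ratios (*Cxxc1*-deficient over WT) was -0.71, against -0.20 over all 20125 genes above 0 in a library. In all, 70 were lower and 18 higher, and *Usp20* stood at 27 in both. Of all genes, 60.0% were lower. At least 2-fold lower were 26 of the 89, beside 17.4% of all genes, and at least 2-fold higher were 2, beside 5.89% of all genes. The 26 include *Ube2e1*, which was at 32 in WT and listed at 0 in *Cxxc1*-deficient cells. By family, the log2 ratios had a median of -0.84 for the 35 Ube2 genes and of -0.55 for the 54 Usp genes, and 13 genes of each family were at least 2-fold lower. This gap was not kept at each level, taken as the mean of both libraries. At 100 or more the Ube2 and Usp medians were -1.12 and -1.10, and from 50 to under 100 they were -0.95 and -0.51. From 20 to under 50 they were 0.07 and -0.09, and under 20 they were -1.04 and -1.40. Together the genes made up 0.597% of the summed values in WT and 0.524% in *Cxxc1*-deficient cells.

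These directions hold for the values as deposited, and scaling moved the log2 ratios of genes above the floor of 1 alike. Scaling to the same 75th percentile of the genes above 0 in both libraries shifted them by 0.39. Scaling to the same sum without the 100 highest genes shifted them by 0.56, and scaling to the same median of the genes averaging at least 100 by 1.00. With the last, the median log2 ratio of the Ube2 and Usp genes was 0.28, with 26 of 89 lower. The order of the genes by ratio, and their distance from other genes of the same level, is the same under each of these scalings for values above the floor of 1.

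**Figure D1:**
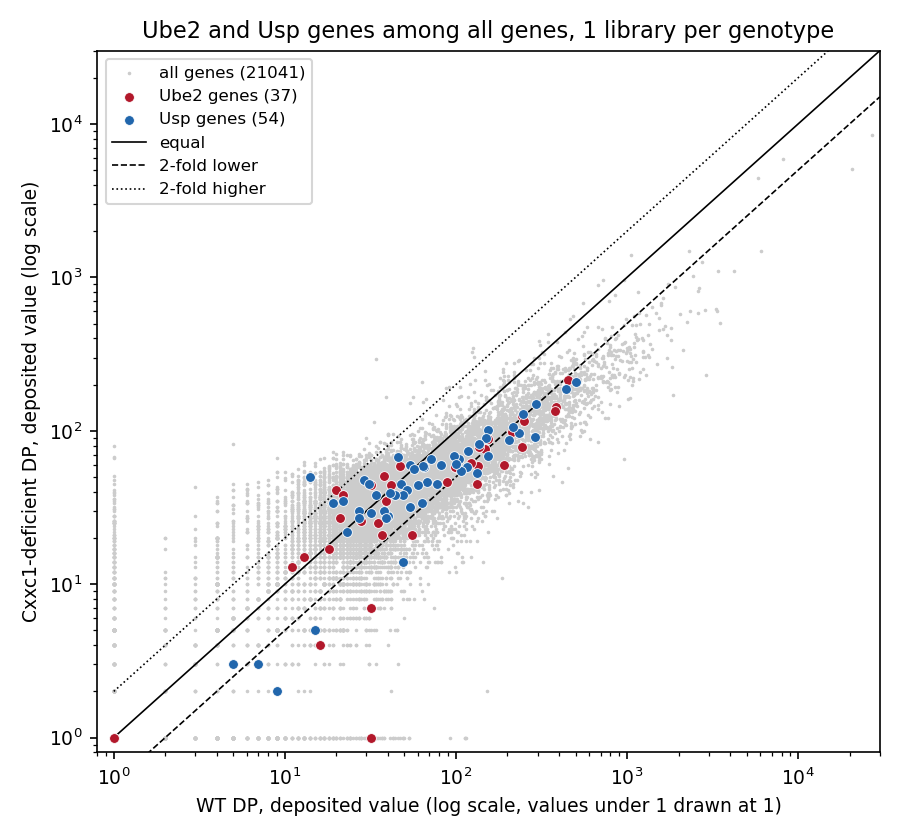
Deposited value in WT (x axis) and in *Cxxc1*-deficient DP thymocytes (y axis) on log scales, with all 21041 genes in grey, the 37 Ube2 genes in red and the 54 Usp genes in blue, and lines for equal values and for 2-fold lower and higher. As deposited, 70 of 89 points lie under the line of equal values and 26 on or under the 2-fold line. Of all genes above 0 in a library, 60.0% and 17.4% do. Scaling to the same median of the genes averaging at least 100 turned the 70 lower to 26 lower.

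The ratio went with the level. Genes were grouped by the mean of both libraries, and the Ube2 and Usp genes were set beside all genes of the same group. All 23 that averaged at least 100 were lower in *Cxxc1*-deficient cells as deposited, with a median of 233 in WT cells and 98 in *Cxxc1*-deficient cells, and the log2 ratios had a median of -1.12. Of all 2472 genes at that level, 95.2% were lower, with a median of -1.08. At least 2-fold lower were 14 of the 23 (60.9%), beside 56.8% of all genes at that level. In the group from 50 to under 100, 21 of 24 were lower (87.5%), beside 82.6% of all 3657 genes, and the medians were -0.68 and -0.53. Over both groups together, 18 of 47 were at least 2-fold lower (38.3%), beside 34.9% of all 6129 genes. From 20 to under 50, 18 of 32 were lower and 13 higher, beside 47.7% of all 11523 genes lower, and the medians were -0.08 and 0.00. At each of these levels the Ube2 and Usp genes lay close to other genes of their level. Under 20 they did not, since 8 of 10 were lower, beside 48.4% of all 2473 genes, and 6 of 10 by at least 2-fold, beside 25.8%, with medians of -1.40 and 0.00. Those 6 of the 26 genes at least 2-fold lower thus come from the lowest level. All 10 lay below the 95th percentiles of the genes taken to be silent, described further on. Among them, *Usp17lc*, *Usp17ld* and *Ube2e1* share most of their sequence with other loci.

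**Figure D2:**
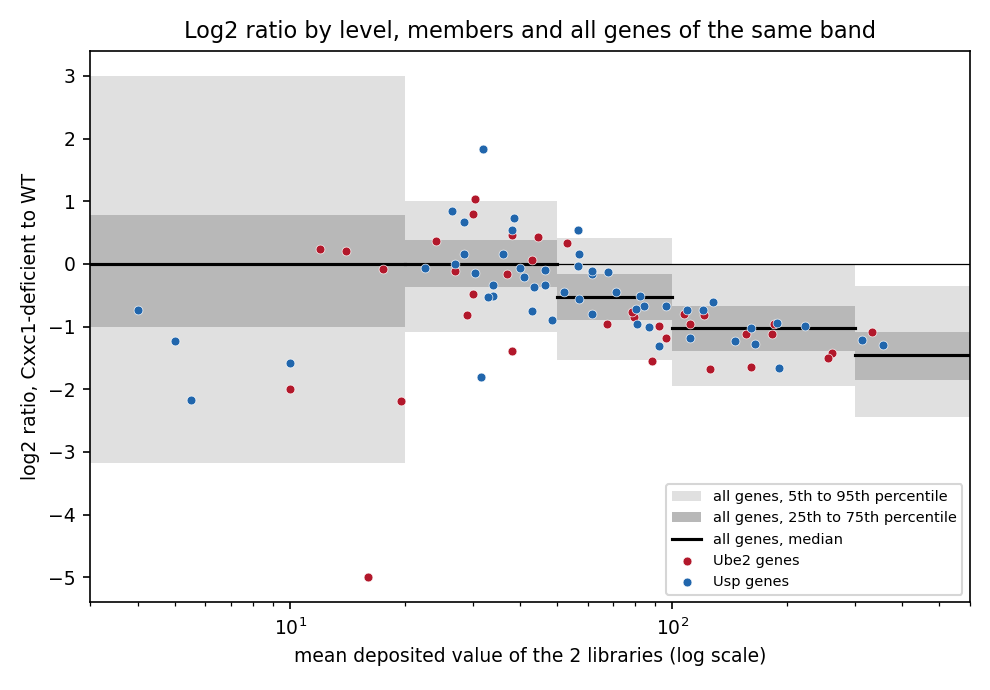
Log2 of the *Cxxc1*-deficient value over the WT value in DP thymocytes (y axis) against the mean deposited value of both libraries (x axis, log scale) for the Ube2 (red) and Usp (blue) genes, with the median and the 5th to 95th and 25th to 75th percentiles of all genes of the same level group behind them. The points follow the grey bands down from a median of -0.08 at a mean of 20 to under 50 to -1.12 at a mean of at least 100. Under 20 they do not, with a median of -1.40 beside 0.00 over all genes. Scaling would move points and bands up together by at most 1.00 (*Ube2e1* is drawn at -5.00 because its 0 was raised to 1).

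Only 7 of the 89 lay outside the 5th to 95th percentile range of their level group, a range that leaves out 5% of all genes of the group at each end. Below it were *Ube2d3*, *Ube2q2*, *Usp1* and *Ube2e1*. Above it were *Usp2*, *Usp17lb* and *Ube2cbp*. In both libraries, *Usp1*, *Ube2e1*, *Usp17lb* and *Ube2cbp* lay below the 95th percentile of the genes taken to be silent, described further on. All 4 below the range have less than 50% of their transcript free of near-identical sequence elsewhere in the genome, a property described further on.

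The genes of highest level came from both families. *Usp25*, a deubiquitinase of TRAF signalling, was highest in WT, at 505 in WT cells and 207 in *Cxxc1*-deficient cells (2.44-fold lower). It was followed by *Ube2r2* (454 and 213), the highest in *Cxxc1*-deficient cells and a partner of cullin-RING ligases, and by *Usp7* (438 and 188), which acts on the ligase *Mdm2* and on p53. *Ube2b* stood at 382 and 142 and *Ube2j1* at 378 and 134. The plot of both values for the 47 genes averaging at least 50 shows that the order of the genes was largely kept, with a Spearman correlation between the libraries of 0.896 over the 91 genes and 0.779 over all 21041, given as a description across genes.

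**Figure D3:**
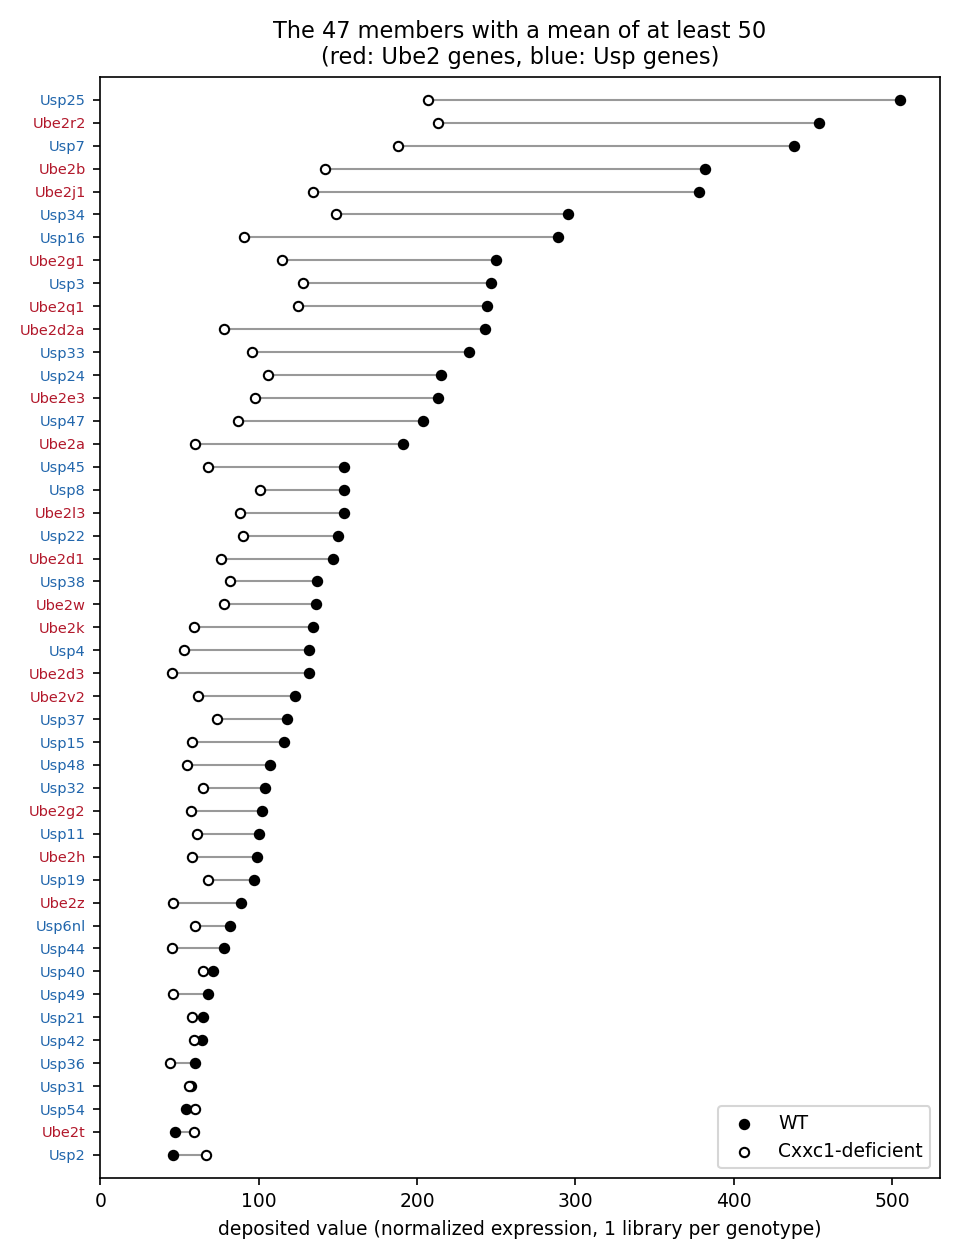
Deposited value (x axis) in WT (filled) and *Cxxc1*-deficient (open) DP thymocytes for the 47 Ube2 (red names) and Usp (blue names) genes averaging at least 50, ordered by the WT value. As deposited, 44 of the 47 are lower in *Cxxc1*-deficient cells, from *Usp25* at 505 and 207 downwards, and 3 are higher (*Usp54*, *Usp2* and *Ube2t*), though under scaling to the same median of the genes averaging at least 100 the median of all 89 genes was 0.28.

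In the groups by role that follow, counts are to be read beside the shares over all genes (60.0% lower and 17.4% at least 2-fold lower) and over genes averaging at least 100 (95.2% and 56.8%), and each gene was also set beside the median log2 ratio of all genes of its level group.

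Among the E2 enzymes, the Ube2d and Ube2e families and *Ube2w* serve many RING ligases. Of these 8 genes 7 were lower as deposited and 4 by at least 2-fold, with a median log2 ratio of -1.04, and 5 of the 8 lay below the median of their level group. *Ube2d2a* was at 243 and 78 (3.12-fold lower), *Ube2e3* at 213 and 98 (2.17-fold) and *Ube2d3* at 132 and 45 (2.93-fold). *Ube2d1* was at 147 and 76 and *Ube2w*, which attaches ubiquitin to the N terminus of proteins, at 136 and 78, so the members of this group with the highest levels were all lower. *Ube2d2b*, a retrogene of testis, was at 28 and 26, and *Ube2e2* at 21 and 27 was the 1 gene of the group that was higher.

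The E2 enzymes that build degradation chains or act in ER-associated degradation were all lower as deposited, by 1.76 to 2.82-fold. They were *Ube2r2*, *Ube2j1*, *Ube2j2* (37 and 21), *Ube2g1* (250 and 115), *Ube2g2* (102 and 57) and *Ube2k* (134 and 59). *Ube2j1* and *Ube2j2* are anchored in the ER membrane. The median log2 ratio of the 6 was -1.11, and 5 of the 6 lay below the median of their level group, with a median distance of -0.39.

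*Ube2n* builds the chains used in NF-kB and DNA damage signalling, together with *Ube2v1* or *Ube2v2*. *Ube2n* was low at 39 and 35, *Ube2v2* was at 123 and 62 (1.98-fold lower), and *Ube2v1* was listed at 0 in both libraries. The value of *Ube2v1* is uncertain because 82.0% of its longest coding transcript overlaps exons of *Tmem189* on the same strand and only 14% of it is free of near-identical sequence elsewhere.

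*Ube2a* and *Ube2b* are close relatives that ubiquitinate histone H2B and PCNA with *Rnf20* or Rad18. *Ube2a* was at 191 and 60 (3.18-fold lower) and *Ube2b* at 382 and 142 (2.69-fold lower). Both thus differed by more than the median gene of their level. *Ube2t*, the E2 of the Fanconi anaemia pathway, was at 47 and 59 and was 1 of the 9 Ube2 genes that were higher.

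Of the 5 E2 enzymes of ubiquitin-like proteins 3 were lower and 2 higher as deposited. *Ube2z*, which takes ubiquitin or FAT10 from *Uba6*, was at 89 and 46 (1.93-fold lower). *Ube2m* and *Ube2f*, both for *Nedd8*, were at 42 and 44 and at 18 and 17. *Ube2l6*, the E2 of *Isg15*, was at 32 and 44.

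Of the remaining E2 enzymes, *Ube2q1* was at 244 and 125 (1.95-fold lower), *Ube2l3*, which works with HECT and RBR ligases, at 154 and 88 (1.75-fold), and *Ube2h* at 99 and 58 (1.71-fold). *Ube2q2* was at 55 and 21, *Ube2ql1* at 32 and 7, *Ube2u* at 35 and 25, *Ube2o*, an E2 that is also its own ligase, at 38 and 51, and *Ube2dnl1* at 22 and 38. The anaphase-promoting complex uses *Ube2c* to start chains and *Ube2s* to extend them. *Ube2c* was at 13 and 15 and *Ube2s* was listed at 0 in both libraries, so the values of both were at or below the level of silent genes described further on. The value of *Ube2s* is uncertain because 0% of its transcript is free of near-identical sequence elsewhere.

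Of the 14 USPs that act on histones or chromatin, 13 were lower as deposited, but only 2 by at least 2-fold, and their median log2 ratio was -0.51, with 7 of the 14 below the median of their level group. *Usp16*, which removes ubiquitin from histone H2A, was at 289 and 91 (3.18-fold lower), and *Usp7* was 2.33-fold lower. *Usp3*, also an H2A deubiquitinase, was at 247 and 128 (1.93-fold lower). *Usp22*, the deubiquitinase of SAGA, a coactivator complex that removes ubiquitin from H2B, was at 150 and 90 (1.67-fold lower). Its relatives *Usp27x* (38 and 30) and *Usp51* (29 and 48), which share the SAGA adaptors, were lower in level, and *Usp51* was the 1 gene of the 14 that was higher. *Usp11* was at 100 and 61, *Usp44* at 78 and 45, *Usp49* at 68 and 46, and *Usp21*, *Usp36*, *Usp42*, *Usp46* and *Usp12* lay between 23 and 65 in WT cells and between 22 and 59 in *Cxxc1*-deficient cells.

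The 6 USPs of DNA repair and the cell cycle were all lower as deposited, by 1.44 to 3.50-fold, and all 6 lay below the median of their level group, with a median distance of -0.31. *Usp47*, which acts on DNA polymerase beta, was at 204 and 87 (2.34-fold lower), *Usp45* at 154 and 68 (2.26-fold), *Usp37*, which acts on cyclin A, at 118 and 74 (1.59-fold) and *Usp48* at 107 and 55 (1.95-fold). *Usp28* was at 39 and 27. *Usp1*, which removes ubiquitin from FANCD2 and PCNA, was at 49 and 14, but only 18.6% of its transcript is free of near-identical sequence elsewhere.

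The 3 USPs of free chains and the proteasome had low values. *Usp14*, which sits on the proteasome, was at 52 and 41, *Usp5*, which takes apart unanchored chains, at 40 and 28, and its relative *Usp13* at 19 and 34.

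Among the 10 USPs of endosomes, signalling and the immune response, 8 were lower as deposited and 4 by at least 2-fold, and 5 lay below the median of their level group. *Usp33* was at 233 and 96 (2.43-fold lower), while its close relative *Usp20* stood at 27 in both. *Usp8*, which acts on endosomes and is needed for thymocyte maturation, was at 154 and 101 (1.52-fold lower). The relatives *Usp4* and *Usp15* were at 132 and 53 (2.49-fold) and at 116 and 58, exactly at the 2-fold limit, where rounding of both values allows a ratio between 0.494 and 0.506. *Usp19* was at 97 and 68, *Usp10* at 54 and 32 and *Usp18*, the protease of *Isg15*, at 32 and 29. *Usp2* was at 46 and 67, the highest ratio (1.46) among the genes averaging at least 50.

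The very large USPs *Usp24* and *Usp34* were at 215 and 106 (2.03-fold lower) and at 295 and 149 (1.98-fold lower), on either side of the 2-fold limit and with almost the same ratio. *Usp38* was at 137 and 82, *Usp32* at 104 and 65, *Usp40* at 71 and 65, *Usp31* at 57 and 56, *Usp35* at 22 and 35, and the mitochondrial *Usp30* at 41 and 39. Of the USPs of the spliceosome or without full activity, *Usp39* was at 44 and 38, *Usp50* at 49 and 38, *Usp53* at 63 and 34 and *Usp54* at 54 and 60. *Usp6nl*, named for its relation to the oncogene USP6, was at 82 and 60. None of the last 5 differed by 2-fold.

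The USPs grouped as germ-line or tissue-restricted were low. *Usp26* was at 34 and 38, *Usp29* at 31 and 45 and *Usp43* at 27 and 30. The Usp17-like genes, a mouse family of recent copies, lay between 5 and 15 in WT cells and between 2 and 50 in *Cxxc1*-deficient cells. *Usp17lb*, at 14 and 50, and *Ube2cbp*, at 20 and 41, were the 2 genes at least 2-fold higher, and for *Ube2cbp* rounding allows a ratio from 1.98 to 2.13. Both lay below the 95th percentiles of the genes taken to be silent in each library (54.0 and 57), described further on. *Usp17lc* and *Usp17ld* share nearly all of their sequence with other loci, so their reads cannot be assigned with certainty.

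Not all of these values lie above the level of genes taken to be silent. As a reference, 1122 olfactory receptor genes, which thymocytes are not known to express, had a median of 22 in WT cells and 24 in *Cxxc1*-deficient cells and 95th percentiles of 54.0 and 57. Above these lay 48 Ube2 and Usp genes in WT (18 and 30) and 38 in *Cxxc1*-deficient cells (15 and 23), which is 52.7% and 41.8% of the 91, against 29.9% and 19.1% of all genes. Of the 91, 36 were above in both libraries and 41 in neither. The 12 above in WT only were *Ube2d3*, *Ube2g2*, *Ube2q2*, *Ube2z*, *Usp4*, *Usp10*, *Usp31*, *Usp36*, *Usp44*, *Usp48*, *Usp49* and *Usp53*, and the 2 above in *Cxxc1*-deficient cells only were *Ube2t* and *Usp2*. Several of these lay close to the limit, such as *Usp31* at 57 and 56. For the 41, among them *Ube2n*, *Ube2c*, *Usp5* and *Usp28*, a level above that of silent genes was not detectable with these values, which does not show that the genes are off.

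Uniquely mapped reads were used, so a gene with near-identical copies elsewhere can lose reads. The longest coding transcript of 90 of the 91 genes was compared with the genome, and bases covered by a match of at least 95% identity over at least 50 bases elsewhere were counted as shared. The share free of such matches was at least 95% in 64 genes and under 50% in 10, of which 7 were Ube2 and 3 Usp genes. They were *Ube2s* and *Usp17lc* (0%), *Usp17ld* (1.31%), *Ube2v1* (14%), *Usp1* (18.6%), *Ube2e1* (21.3%), *Ube2d2a* (26.3%), *Ube2q2* (35.4%), *Ube2h* (36.4%) and *Ube2d3* (46.7%). The 8 of them above 0 were all lower as deposited, 6 by at least 2-fold, with a median log2 ratio of -1.47, and over the other genes, 62 of 80 were lower and 20 by at least 2-fold, with a median of -0.59. Within the 10, *Ube2d2a* still reached 243 in WT and *Ube2d3* 132.

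**Figure D4:**
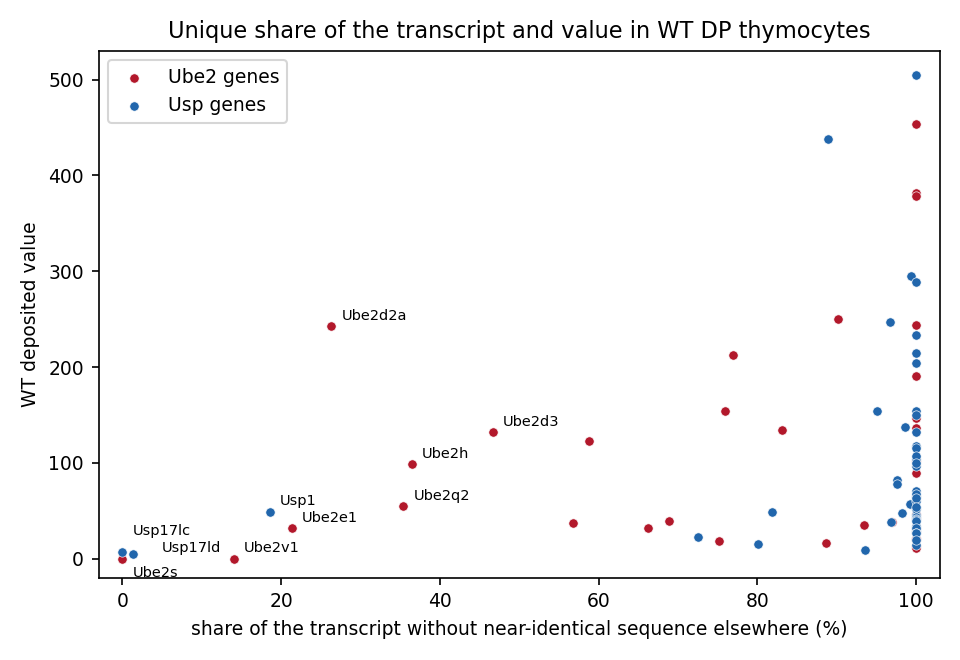
Deposited value in WT DP thymocytes (y axis) against the share of the longest coding transcript without near-identical sequence elsewhere in mm9 (x axis, percent) for the Ube2 (red) and Usp (blue) genes, with names for the 10 genes under 50%. Of these, *Ube2s* and *Ube2v1* are at 0, while *Ube2d2a* stands at 243 and *Ube2d3* at 132.

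Levels of different genes were compared on the deposited scale, which the sources used here do not name. The 53 Usp genes with an annotated coding transcript had a median transcript length of 4165 bases (1558 to 11363) and the 37 Ube2 genes one of 2249 bases (743 to 5205), and the median WT value was 58.5 and 55. Over all genes, the 4648 with the shortest transcripts (median 977 bases) had a median WT value of 26 and the 4645 with the longest (median 5262 bases) one of 49, so values grew far less than length. A higher value of a Usp gene than of a Ube2 gene is therefore no measure of more transcripts, and only the comparison of the same gene between the libraries is free of its length.

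Overlapping genes add a limit of another kind, since the sources used here do not say that strand was used in counting. At least 10% of the transcript overlapped exons of another protein-coding gene in 5 of 90 genes. These were *Ube2v1*, *Usp49* (67.6%, with *Med20*), *Ube2e1* (51.0%, with *Nkiras1* on the opposite strand), *Ube2c* (27.0%, with *Tnnc2* on the opposite strand) and *Usp34* (11.6%, with *Ahsa2* on the opposite strand). The value of *Ube2e1*, the 1 Ube2 or Usp gene listed at 0 in *Cxxc1*-deficient cells only, is therefore uncertain on both counts, and its transcript lies at chr14:19115236-19164373.

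CG density went with level more than with the ratio. In the 23 genes averaging at least 100 the median window held 35 CG, against 24 over all genes of that level, and in those under 50 it held 20 against 9. Of the 47 genes averaging at least 50, the 34 with at least 20 CG had a median log2 ratio of -0.96 and the 13 with fewer had -0.79, beside -0.83 and -0.65 over all genes of that level. At a mean of at least 100 the order was the opposite, at -1.11 and -1.18, beside -1.10 and -1.05. With 5 of these genes under 20 CG, no difference by CG density was shown.

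**Figure D5:**
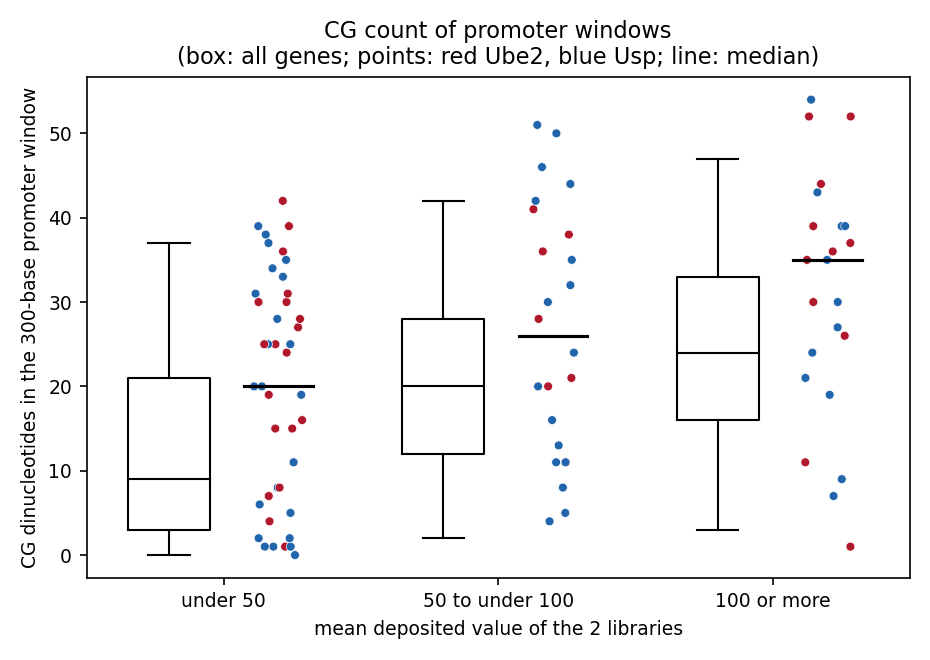
CG dinucleotides in the 300-base window at the start of the longest coding transcript (y axis) by the mean deposited value of both libraries (x axis), with boxes for all genes (box 25th to 75th percentile, whiskers 5th to 95th) and points for the Ube2 (red) and Usp (blue) genes with a line at their median. The line lies above the median of all genes in the lowest group (20 against 9) and in the highest (35 against 24).

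The rest of the pathway showed a like picture in lists of its other parts. Of the 10 E1 enzymes 9 were lower as deposited and 5 by at least 2-fold, with a median log2 ratio of -0.84, and 8 of the 10 lay below the median of their level group. *Uba1*, the main ubiquitin E1, was at 255 and 163, the *Nedd8* E1 subunit *Uba3* at 167 and 59 and the SUMO E1 subunit *Sae1* at 164 and 69, while *Uba7*, the E1 of *Isg15*, was at 36 and 46. Of 31 E3 ligases of thymocytes and T cells all were lower, 13 by at least 2-fold, with a median of -0.82. Of the 31, 17 lay below the median of their level group, so the list stood close to other genes of its level. The E3 ligases of highest mean were *Cbl* (674 and 273), *Mdm2* (566 and 219) and *Nedd4* (425 and 253), and the lowest ratios were those of *Rnf8* (80 and 19) and *Peli1* (460 and 124).

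Of 29 deubiquitinases of other families 25 were lower as deposited and 16 by at least 2-fold, with a median log2 ratio of -1.06 and medians of 132 in WT cells and 55 in *Cxxc1*-deficient cells. Of the 29, 22 lay below the median of their level group, with a median distance of -0.21. *Vcpip1* was at 325 and 153 and *Mysm1*, an H2A deubiquitinase, at 211 and 112, whereas *Tnfaip3* (A20), an inhibitor of NF-kB signalling, was at 389 and 381, so the highest gene of the list had nearly equal values. Of 8 partner subunits of USPs all were lower, 2 by at least 2-fold, and 7 lay below the median of their level group. *G3bp1*, a cofactor of *Usp10*, stood furthest apart at 63 and 9 (7-fold lower). The partners of highest mean were *Atxn7*, an anchor of the SAGA deubiquitinase module, at 169 and 95, *Wdr48*, the activator of *Usp1*, *Usp12* and *Usp46*, at 123 and 66, and *Eny2*, another SAGA subunit, at 90 and 62. All 7 other E2-type enzymes were lower, none by 2-fold, and 3 lay below the median of their level group. They include *Birc6* (248 and 165), *Aktip* (228 and 121) and *Atg3* (167 and 89).

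Of 13 genes for ubiquitin and ubiquitin-like proteins, 9 of the 11 above 0 were lower as deposited, with a median log2 ratio of -0.70, and 9 lay below the median of their level group. *Nedd8* was at 189 and 47 (4.02-fold lower), the polyubiquitin gene *Ubb* at 94 and 20 and *Sumo3* at 77 and 44. *Sumo2* was listed at 0 in both libraries, and 0% of its transcript is free of near-identical sequence elsewhere. For *Ubb* that share is 21.8%, so its values are uncertain too. None of the genes in these 6 lists was 2-fold higher.

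Of the 91 genes 7 lie on the X chromosome, among them *Ube2a*, *Usp11*, *Usp51* and *Usp26*. Of the 7, 3 were lower and 4 higher as deposited, and of the 5 averaging under 50, 1 was lower and 4 higher. The 7 average from 12 (*Ube2dnl2*) to 125.5 (*Ube2a*), so they are not matched in level to the genes that follow. Over the 391 X-linked genes averaging 20 to under 50, 262 were lower, with a median log2 ratio of -0.24, beside 4743 of 10049 autosomal genes and a median of 0.00. *Usp9y*, which the rule leaves out, was at 0 in WT cells and 9 in *Cxxc1*-deficient cells. Both values lie below the medians of the genes taken to be silent (22 and 24), so they give no sex. The sex of the mice cannot be told apart from the genotype with 1 library each.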

How the data were processed

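The DP thymocytes were represented by 1 mRNA-seq library per genotype, grouped by sample title. Per the labels and the study's methods, RNA was extracted with TRIzol, libraries were made with an NEBNext mRNA kit and sequenced on an Illumina HiSeq, reads were processed with CASAVA 1.8.2, mapped to mm9 with Bowtie 1.0.1 (submitters' processing notes), and uniquely mapped reads were analysed with Partek. What was deposited is 1 score for each gene and library, which the authors normalized and rounded to whole numbers, and its unit, the annotation and the depth are not given in the sources used here. Whole numbers that are already normalized are not counts, so no count test was run, and without depth no counting interval can be given.

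From these values the ratio of both libraries was computed with a floor of 1 and a 2-fold threshold (Python 3.11.15, numpy 2.4.6, pandas 2.3.3), and tested on simulated data. With 1 library per genotype no test was run, and counts and medians stand beside those of all genes and of genes of the same level (limits 20, 50, 100 and 300). Every gene of the rule could be named with its values, and of other genes the markers and, as a rule, the 3 with the highest mean in each pathway list, together with genes that stand apart in a list, picked with their values in view. The genes and lists were chosen with earlier results of these data known. Transcripts (GENCODE vM1) were aligned to NCBIM37 with blastn 2.17.0 (megablast, at least 95% identity). Alternatives were other scalings, pseudocounts of 1 and 10, other thresholds and subsets. Chromatin data were not analysed here, and the values of some genes are not reported here.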

Additional observations from a re-analysis of the deposited data

How the results depend on the processing

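The counts of lower and 2-fold lower or higher genes, the family medians and the ratio of each gene were recomputed with other scalings, pseudocounts, thresholds and subsets, and 3 alternatives were chosen after seeing the data, namely subtracting the olfactory receptor median, keeping genes with at least 50% unique transcript, and leaving out X-linked genes. Scaling to the same 75th percentile gave 13 Ube2 and Usp genes at least 2-fold lower and 6 higher, beside 8.86% and 12.0% of all genes. Their median log2 ratios were -0.33 (all), -0.45 (Ube2), -0.16 (Usp) and -0.73 (mean of 100 or more). Scaling to the same sum without the 100 highest genes gave 9 and 9, beside 6.54% and 17.2% of all genes. The medians were -0.15, -0.28, 0.0146 and -0.56. Scaling to the same median of genes at 100 or more gave 4 and 18, beside 3.51% and 37.2% of all genes. With it 26 were lower at all, and the medians were 0.28, 0.16, 0.45 and -0.12. Scaling to the same median of the genes above 0 in both libraries moved no count or median beyond its limit. It gave 24 and 2, beside 16.0% and 6.13% of all genes. A pseudocount of 10 gave 1 gene 2-fold higher and medians of -0.60 (all) and -0.40 (Usp). Leaving out *Ube2cbp* and *Usp6nl* gave 1 higher. A 3-fold threshold gave 9 lower and 1 higher, a 1.5-fold threshold 48 and 6. Subtracting the olfactory receptor median gave 46 lower and 9 higher, and medians of -1.0, -1.27, -0.93 and -1.33. The genes with at least 50% unique transcript had a median of -0.59. For the pseudocounts, thresholds, subsets and the subtraction, shares over all genes are not given here. Counts for role groups, pathway lists, level groups, CG windows and silent genes were computed for the values as deposited only. The changes under scaling follow from its construction, a constant added to each log2 ratio except where a value is held at the floor of 1 (*Ube2e1* stayed at -5.0), and the cause of the others was not tested. No paired analysis was possible because there is a single library of WT and a single one of *Cxxc1*-deficient cells, and no replicate could be left out for the same reason. Depth is not stated, so a low value cannot be given a counting error.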
